A study of Mus musculus with 9 samples.

Results

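Mitochondrial ribosomal protein genes were examined in hair cells (HCs) of newborn *Mir96* Dmdo mice. Members were the genes whose symbol is Mrpl or Mrps followed by a number and at most 1 letter, which gave 78 of 43808 genes, 49 of them named Mrpl and 29 named Mrps. Of these, 75 (48 Mrpl and 27 Mrps) were compared, since they had a count of 20 or above in 2 or 3 libraries of some genotype, among 15184 genes compared in all. The 6 names that start in the same way but carry a pseudogene suffix were left out.

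Cochlear and vestibular HCs of P1 mice were sorted together as cells positive for the reporter Atoh1/nGFP and for the epithelial surface protein CD326. Homozygous mutants carried 2 Dmdo alleles of *Mir96*, heterozygotes carried 1 and wild-type mice carried 0, and all mice carried Atoh1/nGFP, a reporter driven by an enhancer of the HC gene *Atoh1*, on a background mixed from C3HeB/FeJ and C57BL6. Each genotype had 3 libraries, named here by the mouse number in their labels, which were 43, 46 and 47 for homozygous mutants, 45, 48 and 51 for heterozygotes, and 44, 55 and 59 for wild-type mice. Cochlear and vestibular HCs were not separated, so the values mix both.

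Mitochondria hold their own ribosomes, the mitoribosomes, which translate the few proteins encoded in mitochondrial DNA, all of them parts of the respiratory chain or of the ATP synthase. All mitoribosomal proteins are encoded in the nucleus and imported, and each mitoribosome has a large subunit, which forms the peptide bonds, and a small subunit, which reads the message. HCs rely on mitochondria for ATP and calcium handling, and mutations in human genes of mitochondrial translation, *MRPS2* and *MRPS7* among them, cause disorders that include sensorineural hearing loss.

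miR-96, the product of *Mir96*, is made in sensory cells and lowers the transcripts it pairs with through its seed, bases 2 to 8. The mature sequence (RefSeq, GRCm38.p6, chr6:30169506-30169528, minus strand) is shown with the seed in capitals, since the Dmdo allele changes it by A7U, counted from the 5′ end.
mmu-miR-96-5p: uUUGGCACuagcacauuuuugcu
The 7 bases that pair with this seed, GTGCCAA, were found in the 3′ UTRs of 5 of the 75 members compared (6.67%), against 9.83% of 12980 genes compared that have an annotated 3′ UTR. The median 3′ UTR of the members was 390 bases long, against 1218.5 bases for all these genes. The 5 sites are shown within the transcript (GENCODE vM21, GRCm38), with the 7 bases in capitals, because they are the places at which the normal seed could pair.
*Mrpl10*, chr11:97048746-97048752, plus strand: tcctgggtcttGTGCCAAgcactctacag
*Mrpl17*, chr7:105806284-105806290, minus strand: ccgtaaagatgGTGCCAAgcctgataact
*Mrpl55*, chr11:59205954-59205960, plus strand: ctgagaagtatGTGCCAAgtcaaagccag
*Mrps11*, chr7:78792893-78792899, plus strand: cgaggctggaaGTGCCAAgctggcctctt
*Mrps17*, chr5:129722425-129722431, plus strand: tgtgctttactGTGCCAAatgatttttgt
On the log2 scale the homozygous mutant over wild-type value of these genes ran from 0.05 in *Mrps11* to 1.06 in *Mrpl55*, and no member of the group passed the test (smallest adjusted p = 0.433 by edgeR's quasi-likelihood test). The matching 7 bases of the Dmdo seed, GAGCCAA, were found in 8 of the 75 members (10.7%), against 10.4% of all genes with a 3′ UTR. Their log2 fold changes ran from -0.85 in *Mrps25* to 0.31 in *Mrpl47*, and none passed the test. The *Mrps25* site is shown because this gene had the lowest value of the group.
*Mrps25*, chr6:92174658-92174664, minus strand: ttgttattggtGAGCCAAatgtagctggg
A match of 7 bases is a description of the sequence and not a measured site of binding.

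The libraries held 18175317 to 30932531 counted reads in homozygous mutants, 29470207 to 34873964 in heterozygotes and 19677015 to 28486252 in wild-type mice. The HC markers summed, over 12 genes, to 8845 to 11063 CPM (reads per gene scaled to the effective library size) in homozygous mutants, 11005 to 15281 CPM in heterozygotes and 11365 to 18191 CPM in wild-type HCs, and 1 of them, *Espn*, was called lower in homozygous mutants than in wild-type. Markers of supporting cells (12 genes) summed to 1484 to 2572 CPM over all libraries, those of neurons (8 genes) to 384 to 560 CPM and those of glia (7 genes) to 166 to 410 CPM. Mesenchymal markers (8 genes) summed to 884 CPM in homozygous mutant 46 and to at most 269 CPM elsewhere. Endothelial and macrophage markers (4 genes each) summed to at most 12.0 and 6.83 CPM, and all 5 red blood cell genes were at 0 reads. In bulk RNA, fewer cells of a type and less RNA per cell cannot be told apart.

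The members took 0.368%, 0.317% and 0.373% of all counts in homozygous mutants 43, 46 and 47. In heterozygotes 45, 48 and 51 they took 0.349%, 0.243% and 0.272%, and in wild-type mice 44, 55 and 59 they took 0.411%, 0.201% and 0.252%. The groups overlapped, and wild-type 44 had the highest share of the 9 libraries. The summed level of the compared members was 3473 ± 254 CPM in homozygous mutant, 2814 ± 483 CPM in heterozygous and 3001 ± 1103 CPM in wild-type HCs (SD, n = 3 each), so that the difference between homozygous mutants and wild-type was smaller than the spread within wild-type.

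**Figure D1:**
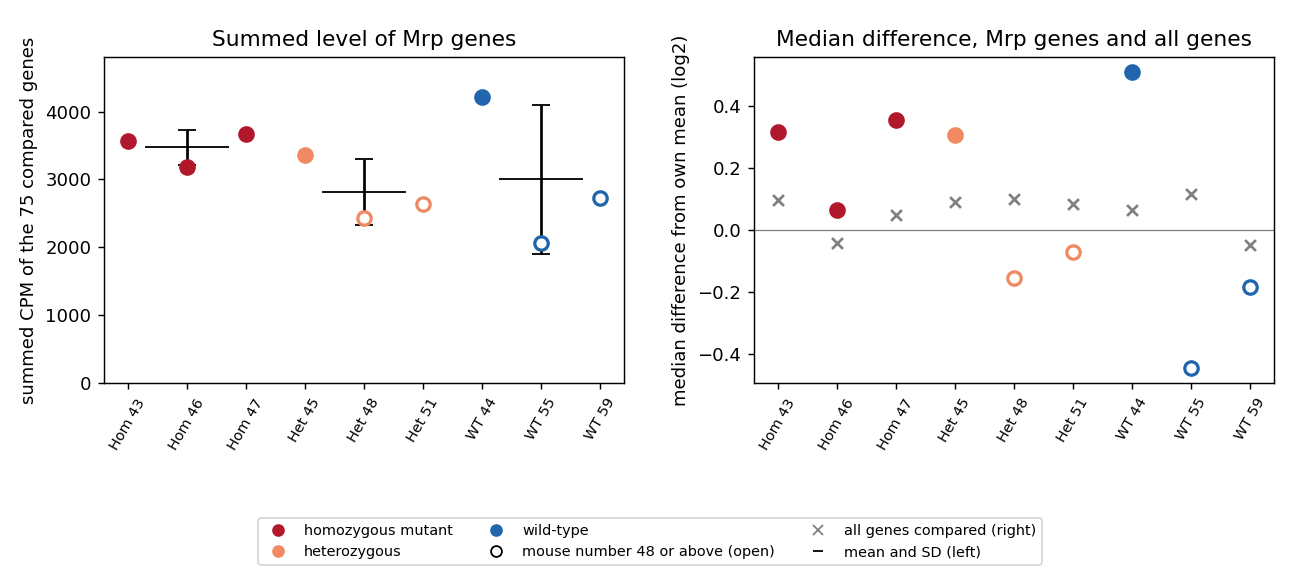
Summed CPM of the 75 compared mitochondrial ribosomal protein genes per library (left, with the mean and SD per genotype) and the median over these genes of the log2 difference from each gene's own mean over the 9 libraries (right, with all compared genes as crosses). Filled points are mouse numbers 47 or below and open points are 48 or above. Wild-type 44 is the highest library and wild-type 55 the lowest in both plots.

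Levels differed widely among the genes of a particle that holds 1 copy of most of its proteins. Scaled to exon length, the 3 highest were *Mrpl14* with 98.7, *Mrpl54* with 91.5 and *Mrpl2* with 77.8 CPM per kb (means over 9 libraries). *Mrpl2* and *Mrpl14* encode homologs of bacterial large subunit proteins of the rRNA core, and *Mrpl54* a large subunit protein found only in mitochondria. The 3 lowest were *Mrpl35* with 1.61, *Mrps18c* with 1.26 and *Mrpl23* with 1.03 CPM per kb. The median over the 75 genes was 14.8 CPM per kb, and 42 of them reached 10 CPM per kb. These lengths are those of all annotated exons, so genes with long rare exons are scaled down most.

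A usable level was lacking for 3 names. *Mrps23* and *Mrpl53*, which encode a small and a large subunit protein, had 0 reads in all 9 libraries, and *Mrps36* had 0.442 CPM in homozygous mutant 46 and 0 in the 8 other libraries. Of the exon bases of *Mrpl53*, 88.0% are shared with another gene model on the same strand, *Gm42688*, and what this did to its count was not tested. The product of *Mrps36* has since been assigned to a metabolic enzyme, the oxoglutarate dehydrogenase complex. In all, 8 of the 78 members share exon bases with another gene on the same strand and 28 with a gene on the other strand. The sources used here do not give the strand setting of the counts, so reads of such partners may be mixed. Among the members named here, and besides *Mrps25* and *Mrpl43* (given below), the larger shared parts of the exon bases were 36.0% in *Mrpl19*, 63.4% in *Mrps34*, 30.5% in *Mrps18b*, 26.3% in *Mrpl24*, 24.2% in *Mrps27* and 24.2% in *Mrpl47* on the other strand, and 37.0% in *Mrps34*, 23.2% in *Mrps18c* and 19.9% in *Mrps6* on the same strand.

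The spread between mice of 1 genotype also differed among members. On the log2 scale the SD within genotypes was smallest in *Mrpl38* (0.227), *Mrpl15* (0.293) and *Mrps6* (0.312) and largest in *Mrps18b* (2.61), *Mrpl35* (2.51) and *Mrpl23* (2.13), with a median of 0.635 over the 75 genes. *Mrps18b* held 5.01, 0.221 and 12.0 CPM in homozygous mutants, 6.67, 7.11 and 2.06 CPM in heterozygotes, and 16.03, 5.94 and 0.110 CPM in wild-type HCs, so that the libraries homozygous mutant 46 and wild-type 59 were near 0. *Mrpl35* was low in the same pair, with 0.442 CPM in homozygous mutant 46 and 0.220 CPM in wild-type 59, and in heterozygote 51 with 0.697 CPM. Homozygous mutant 46 and wild-type 59 also had the lowest read totals.

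Homozygous mutants lack the normal miR-96 seed and carry the changed one, and all of them have low mouse numbers, as given below. Between homozygous mutant and wild-type HCs, no member passed the test of the study's thresholds (adjusted p under 10% and a fold change above 1.5, edgeR's quasi-likelihood test). Of all genes compared, 0.237% were called higher and 0.915% lower. At an unadjusted p under 0.05, 4 members were higher and 0 lower, which is 5.33% and 0% of the 75, against 4.92% and 8.19% of all genes. DESeq2 called 2 members, *Mrpl20* and *Mrpl27*, both higher, and 6.36% of all genes in either direction, while limma-voom called 0 members and 2.11% of all genes. The fold changes of 47 of the 75 members lay above 0 (62.7%, against 49.1% of all genes), and their median log2 fold change was 0.22, against -0.02 for all genes compared. The standard errors of single members ran from 0.302 to 2.39 on the log2 scale with a median of 0.505, so a small change in a single member was not detectable with 3 mice per genotype. Without wild-type 44, 4 members were called higher (*Mrpl20*, *Mrpl27*, *Mrpl40* and *Mrpl54*) and the median was 0.60. The share of all genes called in that fit is not given here, so this count is not read as particular to the members. With a correction for GC content and length the median was 0.05.

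*Mrpl27*, the homolog of bacterial L27 near the site where peptide bonds form, had the smallest p of the members. It held 43.1, 73.7 and 35.4 CPM in homozygous mutants 43, 46 and 47, 29.6, 27.9 and 16.4 CPM in heterozygotes 45, 48 and 51, and 16.8, 13.1 and 12.7 CPM in wild-type mice 44, 55 and 59. Every homozygous mutant was above every heterozygote, and all but heterozygote 51 of the mice with a Dmdo allele were above all wild-type mice. Against wild-type, the homozygous mutants were higher by 1.84 on the log2 scale (standard error 0.531), which missed the threshold (adjusted p = 0.129, edgeR). Homozygous mutant 46, the highest in *Mrpl27*, also had the highest mesenchymal markers, and without it the difference was 1.49 (adjusted p = 0.341, edgeR).

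Along the number of Dmdo alleles (0, 1 and 2), *Mrpl27* rose with each allele by a log2 value of 0.92 with a standard error of 0.248 (adjusted p = 0.0797, edgeR), and it was the only member called in this trend, in which 0.435% of all genes were called higher and 1.34% lower. DESeq2 also called 1 member (6.84% of all genes in either direction), and limma-voom called 6 (5.04%). At an unadjusted p under 0.05, 5 members were higher and 0 lower along the alleles, against 5.16% and 8.07% of all genes. The call was lost with a test against a 1.5-fold change and under 10 of the other settings, among them the fit with the mouse number (0.79 per allele, adjusted p = 0.516) and the fits without each of the 3 homozygous mutants in turn, without wild-type 55, without wild-type 59 and without heterozygote 51 (adjusted p of 0.112 to 0.266). The value per allele stayed between 0.71 and 1.00 under these 10 settings. Without wild-type 44, 5 members were called in the trend, and the share of all genes called in that fit is not given here. The processed pseudogene *Mrpl27-ps* held 23.2, 32.3 and 17.6 CPM in homozygous mutants, 24.8, 11.7 and 15.2 CPM in heterozygotes, and 18.6, 12.8 and 0.385 CPM in wild-type HCs, and reads of the gene and of this copy may have been exchanged, and this was not tested.

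The other large subunit genes at the top of the list were *Mrpl20*, *Mrpl52*, *Mrpl40*, *Mrpl22* and *Mrpl54*. *Mrpl20*, whose bacterial homolog is needed early in the assembly of the large subunit, held 79.4, 127.4 and 106.1 CPM in homozygous mutants, 62.4, 36.3 and 39.5 CPM in heterozygotes, and 65.3, 39.8 and 43.3 CPM in wild-type HCs. Its homozygous mutant libraries did not overlap with those of either other genotype, and the log2 fold change against wild-type was 1.08 (standard error 0.372, adjusted p = 0.216, edgeR). *Mrpl52*, a protein of mitochondrial ribosomes only, held 125.0, 108.8 and 68.0 CPM in homozygous mutants, 46.96, 30.2 and 57.3 CPM in heterozygotes, and 66.7, 49.3 and 38.9 CPM in wild-type HCs. The lowest homozygous mutant was barely above the highest wild-type library, and the log2 fold change was 0.96 (standard error 0.382, adjusted p = 0.283, edgeR).

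*Mrpl40*, also found only in mitochondrial ribosomes, held 66.2, 36.0 and 46.7 CPM in homozygous mutants, 29.4, 12.2 and 18.7 CPM in heterozygotes, and 33.6, 13.2 and 6.27 CPM in wild-type HCs, and homozygous mutants were higher than wild-type by 1.49 on the log2 scale (standard error 0.613, adjusted p = 0.298, edgeR). The groups did not overlap, but wild-type 44 came close to the lowest homozygous mutant. *Mrpl22*, which lines the tunnel through which the new peptide leaves, held 24.2, 12.5 and 30.3 CPM in homozygous mutants and 29.2, 10.9 and 17.4 CPM in heterozygotes, against 5.86, 11.3 and 4.12 CPM in wild-type HCs. *Mrpl54* held 74.96, 115.8 and 123.9 CPM in homozygous mutants, 86.04, 65.4 and 42.3 CPM in heterozygotes, and 106.8, 32.7 and 31.3 CPM in wild-type HCs. Neither passed the test, with 1.65 in *Mrpl22* and 0.88 in *Mrpl54* on the log2 scale (adjusted p = 0.382 and 0.396, edgeR), and in *Mrpl54* wild-type 44 lay inside the homozygous mutant range.

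On the lower side no member reached an unadjusted p under 0.05. *Mrps25*, a small subunit protein of mitochondria only, held 40.5, 9.17 and 40.6 CPM in homozygous mutants, 75.5, 50.5 and 51.9 CPM in heterozygotes, and 68.1, 50.97 and 44.2 CPM in wild-type HCs. All homozygous mutants were below all other libraries, but homozygous mutant 46 alone was far below, and the log2 fold change was -0.85 (standard error 0.480, adjusted p = 0.461, edgeR), or -0.41 without that mouse. Of its exon bases, 69.8% are shared with *Nr2c2* on the other strand. *Mrpl23*, a neighbour of *Mrpl22* at the tunnel exit, held 2.16, 0.110 and 0 CPM in homozygous mutants, 7.06, 2.58 and 0.474 CPM in heterozygotes, and 4.17, 2.02 and 26.5 CPM in wild-type HCs.

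The log2 fold change of *Mrpl23* was -3.84 with a standard error of 2.03 (adjusted p = 0.426, edgeR), and it was -2.02 without wild-type 59, where the gene was highest. Its pseudogene *Mrpl23-ps1* held 55.5, 60.2 and 62.4 CPM in homozygous mutants, 43.4, 35.5 and 18.5 CPM in heterozygotes, and 38.8, 30.5 and 40.6 CPM in wild-type HCs, more than *Mrpl23* itself in 9 of the 9 libraries, so the level of *Mrpl23* is uncertain. The other members of smallest p on this side were *Mrps27* (-1.35), *Mrps14* (-0.73), *Mrps9* (-0.57) and *Mrpl9* (-0.42), given as log2 fold changes with adjusted p of 0.663 to 0.741 by edgeR. In *Mrps27* the wild-type libraries themselves ranged from 0.440 CPM in mouse 59 to 53.5 CPM in mouse 44, and without mouse 44 the log2 fold change was 1.38.

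**Figure D2:**
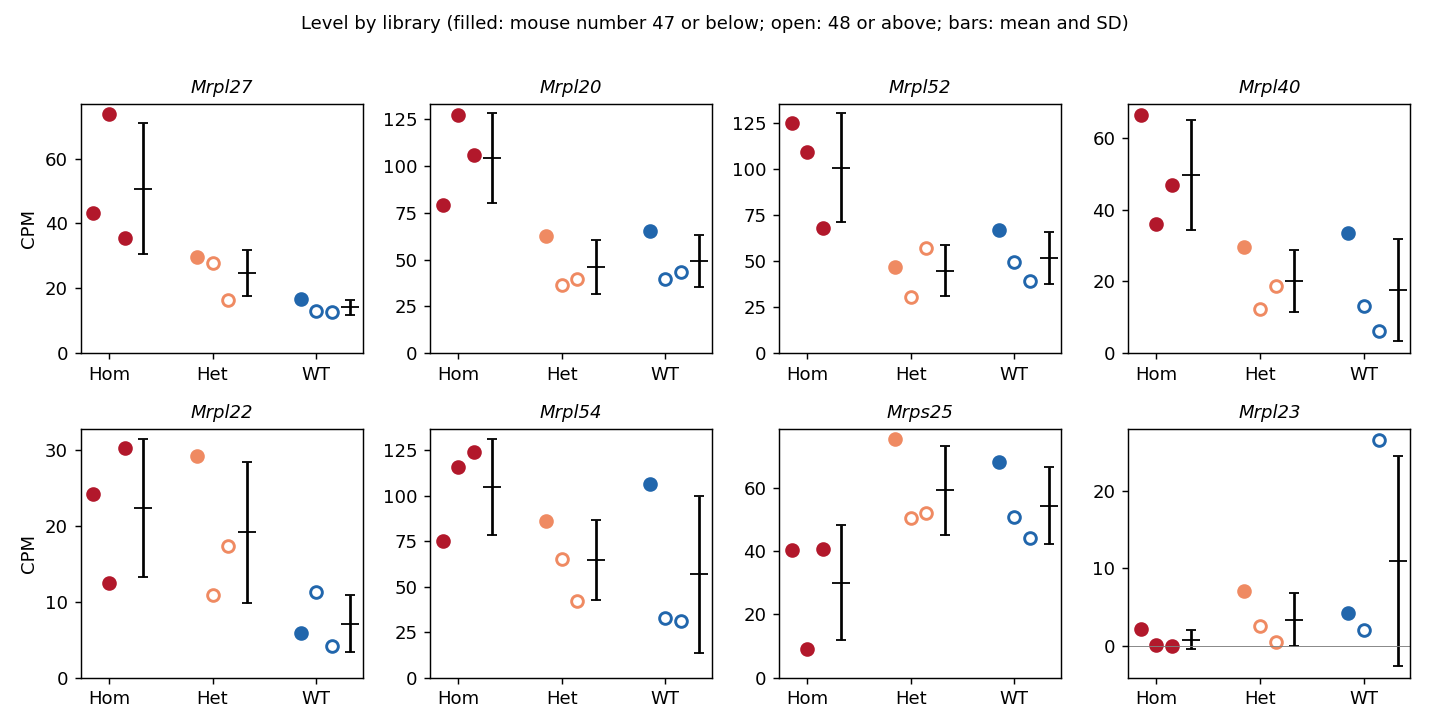
CPM by library of the 6 members with the smallest p on the higher side and the 2 on the lower side between homozygous mutant and wild-type HCs, with homozygous mutants (Hom), heterozygotes (Het) and wild-type (WT) from left to right, and the mean and SD beside the points. In *Mrpl27* the homozygous mutants sit between 35.4 and 73.7 CPM, above all other libraries, while in *Mrpl54* wild-type 44 (106.8 CPM) lies among them.

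Counted by overlap, 7 members (9.33% of 75) had all homozygous mutants above all wild-type libraries, against 7.61% of all genes, and 1 (1.33%) had them all below, against 8.90% of all genes. The 7 were *Mrpl19*, *Mrpl20*, *Mrpl22*, *Mrpl27*, *Mrpl40*, *Mrpl52* and *Mrps31*, and the 1 was *Mrps25*. The share on the higher side is near that of all genes.

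Grouped by place in the mitoribosome, the large subunit proteins with bacterial homologs had a median of 0.37 on the log2 scale, homozygous mutants over wild-type, with 20 of 30 above 0, and those found only in mitochondria had a median of 0.24, with 14 of 20 above 0. In the small subunit, the proteins with bacterial homologs had a median of 0.15, with 10 of 16 above 0, and those found only in mitochondria had a median of -0.32, with 3 of 9 above 0. The signs in the small subunit rested on single libraries. The proteins found only in mitochondria were at 0.23 without homozygous mutant 46 and at 0.29 without wild-type 44, against -0.52 to -0.18 without each of the other libraries. Their library medians were 0.25, -0.71 and 0.36 in homozygous mutants, and 0.76, -0.33 and 0.03 in wild-type HCs. The small subunit proteins with bacterial homologs were at 0.82 without wild-type 44, but at -0.07 without wild-type 55, -0.09 without wild-type 59 and -0.08 without homozygous mutant 47, while both large subunit groups stayed above 0 without any 1 library (0.15 to 0.54). No gene of the 4 groups was called, and the difference between the groups was not tested. *Mrps30* and *Mrps18a*, which keep small subunit names but encode large subunit proteins, were counted in the large subunit and had log2 fold changes of 0.37 and -0.28.

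Of the members named for their function, none was called. *Mrps2*, *Mrps7* and *Mrps12*, of which the first pair are human deafness genes and the last is the homolog of the fly mechanosensory gene *tko*, were at 0.34, -0.21 and 0.19 on the log2 scale (adjusted p of 0.889 to 0.913 by edgeR). *Mrpl12*, *Mrpl10* and *Mrpl11*, of the stalk that recruits translation factors, had values of -0.14, 0.14 and 0.01. *Mrpl45*, *Mrpl24* and *Mrpl22*, which lie around the tunnel exit at the inner membrane, had 0.01, 0.46 and 1.65, and *Mrpl58*, a peptidyl-tRNA hydrolase built into the large subunit, had -0.02. The paralogs *Mrps18b* and *Mrps18c* had -0.35 (standard error 1.62) and 2.01 (standard error 2.39), at mean levels of 6.13 and 1.36 CPM.

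**Figure D3:**
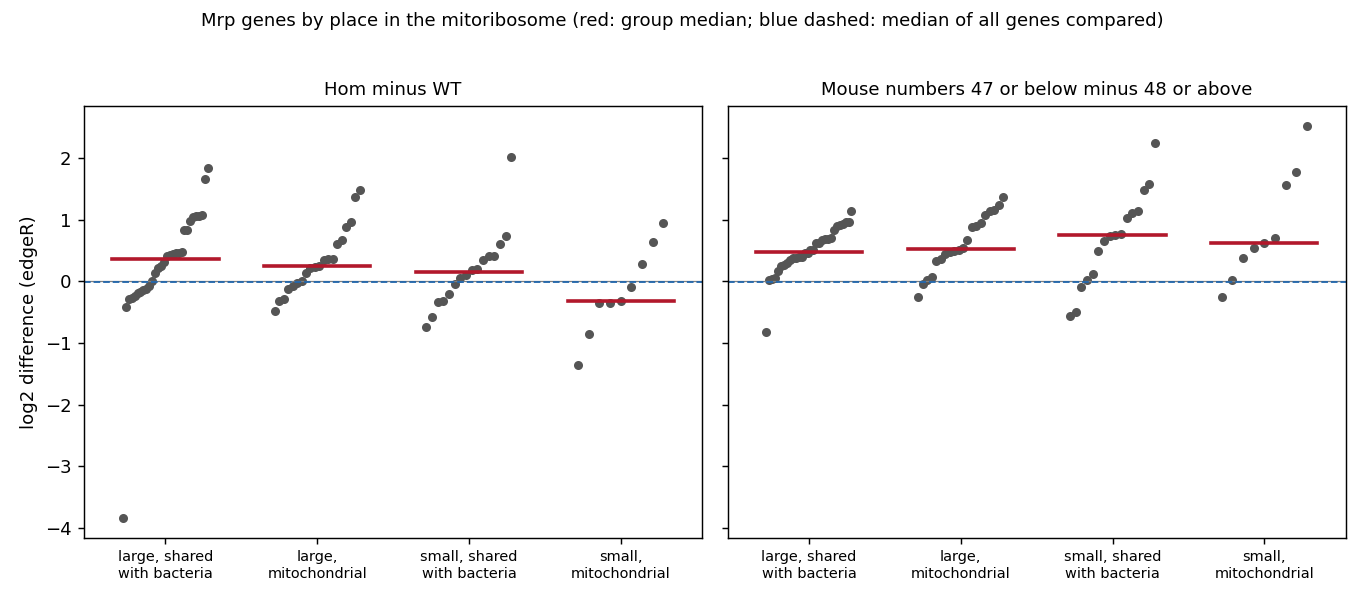
Log2 differences of the 75 compared genes by place in the mitoribosome, between homozygous mutants and wild-type (left) and between mouse numbers 47 or below and 48 or above with genotype in the fit (right). Points are genes in order of value, red lines are group medians and the blue dashed line is the median of all compared genes. On the left the medians run from 0.37 to -0.32, and on the right all 4 medians lie between 0.49 and 0.75.

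Between heterozygous and wild-type HCs, 0 members were called by edgeR, with 0% of all genes called in either direction, and 0 members reached an unadjusted p under 0.05, against 1.79% of all genes on the higher and 2.73% on the lower side. DESeq2 and limma-voom also called 0 members, and 0.303% and 0.00659% of all genes. The median log2 fold change of the members was -0.07, against -0.03 for all genes, with 33 of 75 above 0, and it was 0.02 with scaling to library totals, 0.10 with limma-voom, 0.32 without wild-type 44 and -0.26 without wild-type 55. The smallest p values belonged to *Mrpl22* (1.43), *Mrpl27* (0.80) and *Mrps5* (0.49) on the higher side and to *Mrpl21* (-1.02), *Mrpl12* (-0.80) and *Mrps34* (-0.63) on the lower side, all given as log2 fold changes, with an adjusted p of 1 in each (edgeR). *Mrpl12* held 24.3, 24.2 and 29.0 CPM in heterozygotes and 59.98, 35.7 and 39.1 CPM in wild-type HCs without overlap, and *Mrps5* held 61.4, 70.3 and 50.3 CPM in heterozygotes and 43.9, 38.3 and 47.6 CPM in wild-type HCs. Without overlap were 2 members on the higher side, *Mrps5* and *Mrps31*, and 1 on the lower, against 5.41% and 5.38% of all genes.

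Between homozygous mutant and heterozygous HCs, 0 members were called by edgeR, with 0% of all genes called higher and 0.00659% lower, while DESeq2 called 0 (0.968% of all genes) and limma-voom called 2, *Mrpl20* and *Mrpl40* (0.896% of all genes). On the higher side 4 members reached an unadjusted p under 0.05, *Mrpl20* (1.18), *Mrpl52* (1.17), *Mrpl15* (0.99) and *Mrpl40* (1.30), given as log2 fold changes with adjusted p of 0.698 to 0.716 (5.33% of members, against 2.90% of all genes), and 0 on the lower side, against 3.89% of all genes. *Mrpl15*, the homolog of bacterial L15, held 52.7, 50.8 and 41.2 CPM in homozygous mutants, against 25.4, 29.8 and 17.9 CPM in heterozygotes. On the lower side the smallest p values belonged to *Mrps25* (-0.98), *Mrpl23* (-2.15) and *Mrps27* (-0.93). The median of the members was 0.24, against 0 for all genes, with 51 of 75 above 0. The homozygous mutants did not overlap with the heterozygotes in 14 members on the higher side (18.7% of 75, against 6.95% of all genes) and in 1 on the lower, *Mrps25* (1.33%, against 7.27%). This comparison and the one with wild-type share the homozygous mutant libraries.

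Of the comparisons made, that along the mouse numbers gave the largest median difference of the members. The 5 libraries of mice 43 to 47 gave them 0.317% to 0.411% of the counts, and the 4 libraries of mice 48 to 59 gave them 0.201% to 0.272%, without overlap. All homozygous mutants have low numbers, so number and genotype can be told apart only through wild-type 44 and heterozygote 45, which have low numbers too. The labels do not tell whether a number follows litter or date, and 47 was taken as the limit because it is the highest number of a homozygous mutant.

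With the number group added to the genotype in edgeR's fit, the median log2 difference of the members between low and high numbers was 0.55, against -0.01 for all genes, and 68 of 75 members lay above 0 (90.7%, against 49.3% of all genes). No member was called, against 0.784% of all genes called higher and 0.797% lower. At an unadjusted p under 0.05, 12 members were higher in mice with low numbers (16%, against 4.21% of all genes) and 0 were lower (against 5.06%). The 4 place groups had medians of 0.49, 0.53, 0.75 and 0.62, in the order used above. In this fit the members' median between homozygous mutants and wild-type was -0.13 on the log2 scale and that between homozygous mutants and heterozygotes was -0.09.

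The smallest p values in this comparison belonged to *Mrpl54* (1.24, standard error 0.363, adjusted p = 0.115, edgeR) and *Mrps7* (1.15, standard error 0.340, adjusted p = 0.120, edgeR). *Mrps7*, the homolog of bacterial S7 in the head of the small subunit, held 70.6, 65.9 and 73.7 CPM in homozygous mutants, 90.3 CPM in heterozygote 45 and 143.3 CPM in wild-type 44, against 49.0 and 58.4 CPM in heterozygotes 48 and 51 and 53.2 and 46.99 CPM in wild-type mice 55 and 59. All 5 low numbers were above all 4 high numbers, whatever the genotype. The same held for 6 members, *Mrpl20*, *Mrpl40*, *Mrpl54*, *Mrpl55*, *Mrpl58* and *Mrps7* (8%, against 3.61% of all genes), and the reverse for 0, against 3.75%.

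Within a genotype the pattern could be read from single mice only. Wild-type 44 was above both wild-type 55 and wild-type 59 in 51 of 75 members and below both in 3, and heterozygote 45 was above both other heterozygotes in 45 and below both in 9. Within the low numbers, all 3 homozygous mutants were above wild-type 44 in 14 members and below it in 28. These counts were not made for all genes, so they are not read as particular to the members. In wild-type 44, 55 and 59, 78.7%, 18.7% and 42.7% of the members lay above their own mean, against 53.6%, 57.0% and 48.2% of all genes. In heterozygotes 45, 48 and 51 these shares were 69.3%, 36.0% and 42.7%, against 55.8%, 56.9% and 57.4% of all genes. Library medians of the members' log2 difference from their own means were 0.32, 0.07 and 0.36 in homozygous mutants, 0.31, -0.15 and -0.07 in heterozygotes, and 0.51, -0.45 and -0.18 in wild-type HCs, while those of all genes ran from -0.05 to 0.12. After correction for GC content and gene length the member medians were 0.10, 0.34 and 0.22 in homozygous mutants, 0.17, -0.13 and -0.12 in heterozygotes, and 0.40, -0.39 and 0.15 in wild-type HCs, so that wild-type 59 then lay above homozygous mutant 43. The summed HC markers did not overlap between the number groups either, with 8845 to 11365 CPM in low and 13742 to 18191 CPM in high numbers, and their part in the result was not tested. Read totals overlapped, with 18175317 to 30932531 in low and 19677015 to 34873964 in high numbers.

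**Figure D4:**
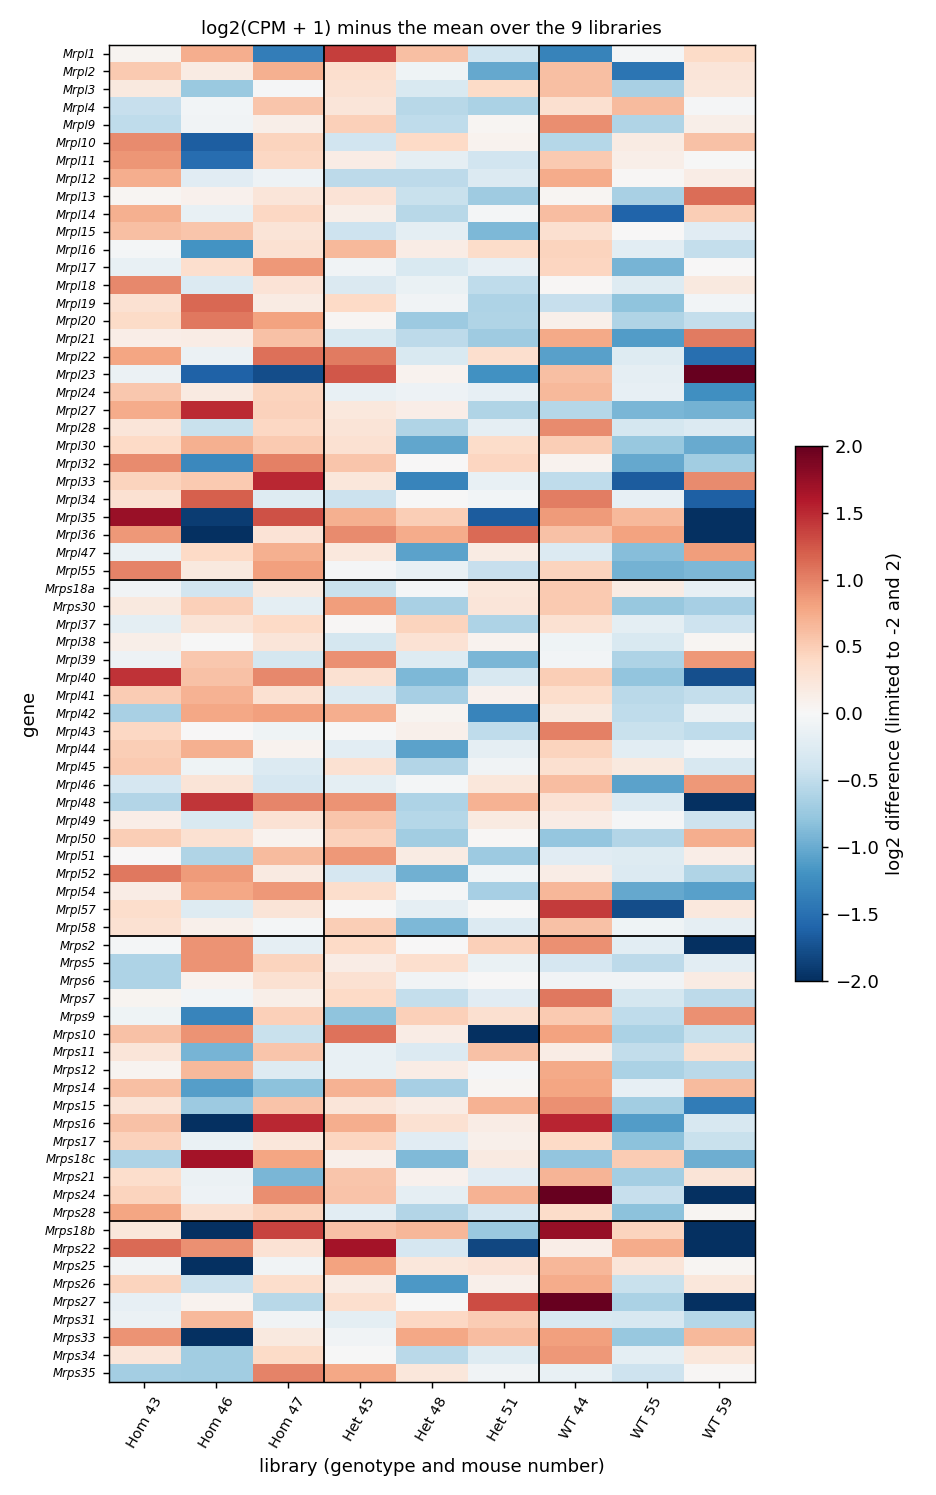
Log2(CPM + 1) of each compared gene (down the page, in 4 blocks by place in the mitoribosome) minus its mean over the 9 libraries, with homozygous mutants, heterozygotes and wild-type from left to right. Red is above and blue below the gene's mean. The column of wild-type 44 is mostly red (59 of 75 genes above their mean) and that of wild-type 55 mostly blue (14 of 75).

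The genes around the mitoribosome were read from 6 lists chosen with earlier results of these data known. No gene of these lists was called between homozygous mutants and wild-type by edgeR, while DESeq2 called *Taco1*, *Ssbp1*, *mt-Cytb* and *mt-Co1* among those named here. DESeq2 called 6.36% of all genes in either direction, and its calls over the rest of these lists are not given here. The 5 mitoribosomal proteins with other names had a median log2 fold change of -0.01, with *Chchd1* at 0.40, *Aurkaip1* at 0.16, *Gadd45gip1* at -0.32 and *Dap3*, a small subunit protein also known from cell death, at -0.01. The 29 genes of mitoribosome assembly and rRNA maturation had a median of 0.01, with 15 above 0, and their smallest p values belonged to the rRNA methyltransferase gene *Mrm2* (2.74), the pseudouridine synthase gene *Trub2* (0.73), the small subunit assembly factor gene *Rbfa* (-1.30) and the GTPase gene *Noa1* (-0.97). Their medians along the mouse numbers were 0.42 for the 5 and 0.17 for the 29.

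The list of translation factors also held other genes of mitochondrial translation, such as *Lrpprc*, *Slirp* and *Oxa1l*. Its 18 genes had a median of 0.20 between homozygous mutants and wild-type. *Taco1*, an activator of cytochrome oxidase translation, was at 2.53 and the initiation factor gene *Mtif2* at 1.27. *Guf1* was at -0.69 and *Gfm2*, which serves ribosome recycling, at -0.71. The list of mitochondrial aminoacyl-tRNA synthetases, which load tRNAs with amino acids, also held *Qrsl1*, *Gatb* and *Gatc*, which are not synthetases. The median of its 22 genes was 0.14, with *Rars2* at 1.95, *Fars2* at 0.83, *Tars2* at -1.61 and *Aars2* at -1.20. Medians along the mouse numbers were -0.06 and -0.05 for these lists, against 0.55 for the members.

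Of 18 genes of mitochondrial DNA transcription and maintenance, 17 were compared, with a median of 0.60 and 14 above 0 between homozygous mutants and wild-type, and a median of 0.31 along the mouse numbers. *Ssbp1*, which coats single-stranded mitochondrial DNA, was at 1.87 and the helicase gene *Twnk* at 1.07, and the polymerase gene *Polg* was at -0.86 and *Trmt10c*, of the mitochondrial RNase P, at -1.08 (adjusted p of 0.282 to 0.654 by edgeR). *Twnk* shares 33.4% of the exon bases of *Mrpl43* on the other strand. Of 15 mitochondrially encoded transcripts 9 were compared, with a median of 0.71 and 8 above 0. Of the rest, *mt-Co3*, *mt-Atp8*, *mt-Nd3* and *mt-Nd4l* had 0 CPM in every library. *mt-Co2* had 0.0279 CPM in heterozygote 51 alone and *mt-Atp6* had 0.0458 CPM in wild-type 44 alone. Why these were nearly without reads was not tested, so the median and the share of counts given below cover only a part of the mitochondrial transcripts.

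*mt-Cytb*, which encodes cytochrome b, held 4210, 4453 and 3821 CPM in homozygous mutants, 4450, 2424 and 2847 CPM in heterozygotes, and 1909, 1892 and 3630 CPM in wild-type HCs, a difference of 0.75 on the log2 scale with a standard error of 0.269 (adjusted p = 0.242, edgeR). *mt-Co1*, which encodes a cytochrome oxidase subunit, was at 0.76 (adjusted p = 0.245, edgeR), and *mt-Rnr1*, the rRNA of the small subunit, at -0.11. With a correction for GC content and length *mt-Cytb* was at -0.03. In wild-type 44 the mitochondrially encoded genes took 0.591% of the counts, the lowest of the 9 libraries, although the members were highest there. With a median of -0.01 along the mouse numbers, these transcripts lay near all genes.

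Promoter windows of 300 bases (RefSeq, GRCm38.p6, from 250 bases before to 50 after the gene start) were at hand for 69 of the 78 members, in 75 windows. The core of the sites of ETS factors, CCGGAAG on either strand, was found in 26 of the 75 windows (34.7%), against 16.3% of the windows of compared protein-coding genes and 8.86% of all 32851 windows. The 26 windows include those of *Mrpl53* and *Mrps23*, which were not compared. The 75 windows are thus not those of the 75 compared members. The letters of NRF1 and YY1 sites were searched as well. They were found in 3 and 5 of the 75 windows (4% and 6.67%), against 1.93% and 1.88% of the windows of compared protein-coding genes. ETS factors, GABP among them, are known activators of nuclear genes for mitochondrial proteins. Of the 6 members of smallest p on the higher side, *Mrpl27*, *Mrpl52* and *Mrpl22* had a match, and their windows are shown around the ETS letters, which are in capitals.
*Mrpl27*, chr11:94653725-94653754, plus strand: gtccgcaagacCCGGAAGtagatctatccc
*Mrpl52*, chr14:54426851-54426880, plus strand: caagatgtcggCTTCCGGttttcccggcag
*Mrpl22*, chr11:58171600-58171629, plus strand: cttttccggtcCCGGAAGccggcctcggac
In *Mrpl27* the letters begin 55 bases before the gene start, in *Mrpl22* 53 bases before it, and in *Mrpl52*, where they are read on the other strand, 47 bases before it. The match is a description of the letters, and no binding was measured here.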

How the data were processed

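RNA-seq of sorted HCs was used from 9 mice, 3 per genotype. Per the submitters' processing notes, the authors aligned reads to GRCm38 with HISAT2 2.0.4 and took gene counts with HTSeq, whose settings are not given in the sources used here, and deposited the raw counts with no normalization. RNA was amplified from a few nanograms in libraries of a directional kit. No replicate pair agreed within sampling noise (the chi-square per gene was 103 to 242), and each library counted as 1 replicate.

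Compared were genes that reached a count of 20 in 2 or 3 libraries of some genotype. CPM and fold changes were computed from the counts with edgeR 4.0.16 (TMM, robust quasi-likelihood test, all 9 libraries in 1 fit, Benjamini-Hochberg over 15184 genes), and a gene was called at an adjusted p under 10% with a fold change above 1.5, or under 10% alone for the trend per allele. A permutation test of 3 against 3 mice cannot go below p = 0.1, so single genes rest on this model. Fold changes in parentheses are on the log2 scale, and medians over members carry no test. The spread between mice was taken on log2 CPM with a prior count of 2. Alternatives used DESeq2 1.42.0, limma-voom 3.58.1, sva 3.50.0, other scalings and filters, a correction for GC content and length, a mouse number term and fits without each library. The code was tested on simulated data. As each library was 1 mouse, p-values rest on the spread between libraries, in which mouse and library preparation cannot be told apart. Exon overlaps, lengths and 3′ UTRs came from GENCODE vM21, by gene identifier, and all 78 members were found there. R 4.3.3, Python 3.11.15 and pandas 2.3.3 were used.

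The members, gene lists and tests were chosen with earlier results of these data known. Named were each member called, the 6 of smallest p per direction between homozygous mutants and wild-type, the 3 per direction in the other comparisons, the 3 extremes of level and of spread, members that were not compared, a fixed set of known function and, of each other list, any called gene and the 2 of smallest p per direction. The deposited files hold no comparisons by the authors. By the study's methods, the RNA of 1 homozygous mutant and 1 wild-type mouse was less intact than the rest, and the sources used here do not name these mice.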

Additional observations from a re-analysis of the deposited data

How the results depend on the processing

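The counts of members called that differed from those in the report were, between homozygous mutants and wild-type, 2 with DESeq2 and 1 with no filter on low counts, and between homozygous mutants and heterozygotes 2 with limma-voom. In the trend per Dmdo allele, limma-voom called 6 members, and 0 were called with a test against a 1.5-fold change, with the GC content and length correction, with 1 surrogate variable, with the mouse number term and with wild-type 59 and homozygous mutant 46 both removed. With each library left out in turn, 0 to 4 members were called higher between homozygous mutants and wild-type and 0 to 5 in the trend. The shares of all genes called in these fits are not given here, so the counts are not read as particular to the members. The median log2 fold change of the members was -0.13 between homozygous mutants and wild-type and -0.090 between homozygous mutants and heterozygotes with the mouse number term. With each library left out it ran from 0.12 to 0.60 between homozygous mutants and wild-type, from -0.26 to 0.32 between heterozygotes and wild-type and from 0.15 to 0.45 between homozygous mutants and heterozygotes. The median difference between low and high mouse numbers stayed at 0.37 to 0.68 under the 12 settings tried, which were chosen after seeing the data, as were medians over members with 1 CPM or more in every library (0.24, -0.08 and 0.25 in the 3 comparisons) and the medians by place in the mitoribosome without each library.

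Single genes changed sign between homozygous mutants and wild-type, none of them past the test in the report. With limma-voom the log2 values were 0.071 in *Mrps27*, 0.037 in *Mrps7*, 0.13 in *Mrps18b*, 0.051 in *Mrpl12*, 0.0607 in *Mrpl58*, 0.18 in *Gadd45gip1* and 0.29 in *mt-Rnr1*. *Dap3* was at 0.000294 with DESeq2, 0.000256 with DESeq-type size factors, 0.070 with library totals, 0.0013 with no filter, 0.0026 with edgeR's own filter and 0.17 with the GC content and length correction, and *Mrpl58* was at 0.063 with library totals. That correction gave -0.43 in *Mrpl10*, -0.13 in *Mrpl11*, -0.13 in *Mrpl45* and -0.032 in *mt-Cytb*. The surrogate variable gave -0.13 in *Mrpl10*, -0.48 in *Mrpl11*, -0.070 in *Mrpl45* and 0.32 in *mt-Rnr1*. The mouse number term gave -0.15 in *Mrps2*, -0.13 in *Mrps12*, -0.26 in *Mrps30*, -0.28 in *Mrpl11*, -0.32 in *Mrpl45*, -0.15 in *Chchd1*, -0.19 in *Aurkaip1* and 0.026 in *mt-Rnr1*. Removal of wild-type 59 and homozygous mutant 46 gave 0.16 in *Mrps9*, -0.57 in *Mrps2*, -0.31 in *Mrps12*, -0.059 in *Mrpl45*, 0.065 in *Gadd45gip1*, 0.075 in *Dap3*, 0.21 in *Trmt10c* and 0.55 in *mt-Rnr1*.

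With each library left out, the log2 values ran from -1.93 to 1.38 in *Mrps27*, -0.72 to 0.073 in *Mrpl9*, -0.49 to 0.48 in *Mrps7*, -1.49 to 0.93 in *Mrps18b*, -0.50 to 0.12 in *Mrpl12*, -0.38 to 0.62 in *Mrpl10*, -0.16 to 0.27 in *Mrpl58*, -0.64 to 0.077 in *Gadd45gip1*, -0.093 to 0.81 in *Mrps12*, -0.48 to 0.47 in *Mrpl11*, -0.11 to 0.50 in *Aurkaip1*, -0.16 to 0.082 in *Dap3*, -0.16 to 1.28 in *Mrps2*, -0.26 to 0.16 in *Mrpl45* and -0.39 to 0.63 in *mt-Rnr1*. The cause of these changes was not tested. No paired analysis was possible because the mouse numbers are not shared between genotypes. Each genotype had 3 mice, and no replicate pair agreed within sampling noise. Read depth was at least 18175317 reads per library, and the parts of depth, RNA input and mouse in the spread were not tested.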

Other observations

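Reads were also counted at copies of member genes that carry a pseudogene suffix. *Mrpl23-ps1* averaged 73.8 CPM per kb over the 9 libraries, against 1.03 CPM per kb at *Mrpl23*. *Mrpl48-ps* averaged 38.2 CPM per kb, against 1.93 CPM per kb at *Mrpl48*, and had more CPM than *Mrpl48* in 7 of the 9 libraries. *Mrpl27-ps* averaged 38.9 CPM per kb, against 30.3 CPM per kb at *Mrpl27*, and had more CPM than *Mrpl27* in 1 library. Whether reads of the genes were counted at their copies was not tested.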
